A study of Mus musculus with 2 samples.

Results

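Cells without cell-cycle transcripts were followed within a population of proliferating mouse macrophages. They were chosen by their counts, as barcodes with at least 500 detected genes, at most 15% mitochondrial counts and at least 8000 total counts that held 0 counts for all of Mki67, Top2a, Ccnb1, Cenpf, Rrm2 and Kif11. In addition, Ube2c and Birc5 together had to lie under 100 counts per 1000000 of the cell's total. Of 6837 barcodes, 6751 met the limits on genes and mitochondrial counts and 4636 also that on total counts. The rule was met by 305 of these 4636 (6.58%, exact 95% interval 5.88 to 7.33%), called negative cells here, and the 4331 other cells of the same limits were set against them.

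The cells are induced macrophages (iMac) of wild type genotype, which the series title describes as fibroblasts reprogrammed by c-Myc without a further factor. They were detached with EDTA and captured in droplets on the DNBelab C4 system, and all cells compared here share this origin, including the Myc given for induction. The labels list a cDNA and an oligo library, but the barcode names of the 1 matrix carry no library, so it was treated as 1 sample with no replicate. No test between conditions or samples is possible with 1 sample, no p-value is given, and all intervals cover counting error only. Neither the starting fibroblasts nor macrophages from animals were analysed here, and the labels do not say how many inductions the cells came from.

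As background, a dividing cell makes the transcripts for DNA replication at the start of S phase and those for mitosis in G2. Mitotic genes are held silent outside that window by the DREAM complex, which binds CHR elements in their promoters. Cells that leave the cycle into quiescence keep these genes low, whereas cells in early G1 lack many of the transcripts for a limited time only, and a single reading of transcripts cannot part them. Macrophages in tissue can divide or rest, and in many lineages rest comes with lower activity of MYC, a transcription factor for ribosome production and growth that competes for its partner MAX with the MXD proteins.

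Depth touches the definition. In the other cells the 6 genes required at 0 summed to 386 counts per 1000000 (CPM), so that a cell of that kind would hold 3.09 of their counts on average at a depth of 8000 and 13.9 at 36000. Negative cells made up 13.7% of the 612 cells with 8000 to under 12000 counts and 11.3% of 523 cells from 12000. They were 7.44% of 847 cells from 16000, 5.91% of 999 from 24000 and 2.42% of 1655 cells of 36000 or more. Their median total was 17026 counts, against 28475 in the other cells, and their median number of detected genes 2976, against 4224. Ratios are therefore given against other cells standardised to the negative cells' spread over these 5 bands of total counts. How far low depth alone brought cells past the rule was not tested. The median mitochondrial share was 0.633% in negative cells and 0.617% in other cells, and the ribosomal protein share 34.3% and 32.7%.

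The values that chose the cells are a description and no result. Ube2c, a ubiquitin-conjugating enzyme of the anaphase-promoting complex, stood at 13.3 CPM in negative cells and 171 CPM in other cells, and Birc5, which encodes survivin, at 16.02 and 181 CPM. The 6 remaining genes were at 0 by construction in negative cells, where 3 counts would come to 0.454 CPM. In other cells they lay between 22.8 CPM for the spindle motor gene Kif11 and 102 CPM for Top2a. Near the limit, the 87 negative cells with 50 to under 100 CPM of Ube2c and Birc5 had 61.7 CPM of the macrophage gene Ms4a7 and a summed level of 224 CPM for 30 further G2 and M phase genes. The 60 cells just outside it, at 100 to under 150 CPM with the 6 genes at 0, had 67.2 and 353 CPM. Cells that missed the rule by a single count in the 6 genes (245 cells) had 70.7 and 248 CPM. Ms4a7 was thus close on both sides of these limits on the rule genes. At the limit of 8000 total counts, the 21 shallowest negative cells (median total 8369) had 0 and 451 CPM. Negative cells as a whole had 88.7 and 221 CPM, so those at the depth limit had less Ms4a7 and more G2 and M phase transcripts. The 19 cells just under it that met the other conditions had 7.08 and 375 CPM. S phase genes outside the rule summed to 1270 CPM in the 21 shallowest and 749 CPM in all negative cells.

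The label was checked against cell-cycle genes that the rule did not name. These vary together with the rule genes, so their lower level is tied to the choice of cells. All 30 G2 and M phase genes outside the rule were lower in negative cells, each by at least 2-fold, with a median log2 ratio of -2.65 and a summed level of 221 CPM, against 1475 CPM in other cells. Kif20a, a kinesin of cytokinesis, stood at 1.06 CPM and 34.8 CPM, Ccna2, which encodes cyclin A2, at 4.38 and 76.3 CPM, and the mitotic kinase gene Plk1 at 4.54 and 74.3 CPM, each time negative cells first. The spindle gene Hmmr was at 0.907 and 26.6 CPM in the same order. Promoters of this list share sequence features, and a pair is shown with the CHR letters in capitals because it ties a gene of the rule to a gene outside it. The stretches are the 250 bases before the start of Ube2c (chr2:164769679-164769928, plus strand) and of Cdk1 (chr10:69352913-69353162, minus strand), from RefSeq on GRCm38.p6, written 5′ to 3′ along the gene's strand.
Ube2c: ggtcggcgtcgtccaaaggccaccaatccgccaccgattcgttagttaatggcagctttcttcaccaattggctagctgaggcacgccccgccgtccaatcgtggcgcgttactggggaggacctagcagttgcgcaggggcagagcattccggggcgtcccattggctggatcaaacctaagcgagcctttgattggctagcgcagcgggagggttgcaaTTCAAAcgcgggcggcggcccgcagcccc
Cdk1: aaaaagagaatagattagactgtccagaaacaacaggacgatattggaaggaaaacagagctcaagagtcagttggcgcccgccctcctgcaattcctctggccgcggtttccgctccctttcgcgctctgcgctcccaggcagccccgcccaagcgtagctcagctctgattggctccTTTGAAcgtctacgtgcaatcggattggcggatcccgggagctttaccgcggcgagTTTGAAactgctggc
Ube2c holds 1 match to TTTGAA on the opposite strand, 29 bases before the start, and Cdk1 holds 2, at 71 and 15 bases before it. Within the window from 250 bases before to 50 bases after the start, TTTGAA was found on either strand in 19 of the 24 G2 and M phase genes with an entry (79.2%), in 5 of the 8 rule genes and in 3 of 25 S phase genes (12%). Of all 27025 genes with a promoter searched, 20.2% held it, each gene counted if any of its promoters did. The CCAAT box, searched as CCAAT on both strands, was in 16 of the same 24 (66.7%) and in 41.1% of all genes searched. It was also in 15 of the 25 S phase genes (60%), so it was not particular to G2 and M phase genes. Such matches describe the letters of the window and do not show binding.

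Cdk1, the kinase that drives entry into mitosis, was at 19.8 CPM in negative cells (16.6 to 23.5) and 114 CPM in other cells (112 to 116). When every cell was thinned to 8000 counts, 16.4% of negative cells held a Cdk1 count, against 49.5% of other cells, and 30.8% and 74.6% did so at full depth. At least 5 different G2 and M phase genes outside the rule had a count in 12 of the 305 negative cells at that equal depth (3.93%, 2.05 to 6.77%), against 71.1% of other cells. None of these genes had a count in 21.3% of negative cells and 2.49% of other cells. No cell type known to lack these genes was identified, so the share that free RNA gives was not measured.

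S phase genes were lower by less, and many negative cells still held their transcripts. All 30 S phase genes outside the rule were lower (median log2 ratio -1.21, 22 of them by 2-fold or more), and their summed level was 749 CPM in negative cells and 1743 CPM in other cells. Clspn, a checkpoint adaptor at the replication fork, stood at 4.23 and 24.9 CPM, the thymidine kinase gene Tk1 at 15.3 and 72.1 CPM, and the replication clamp gene Pcna at 55.8 and 88.1 CPM. At least 5 S phase genes had a count in 44.9% of negative cells (39.2 to 50.7%) and 88.3% of other cells at 8000 counts. The name of these cells thus holds strictly only for the 6 genes required to be at 0: 172 of the 305 also had no count of Ube2c and Birc5, and both mitotic and replication transcripts were lower but not absent. Replication-dependent histone genes, whose transcripts build up in S phase, had a median log2 ratio of -2.38, and 20 of the 21 tested were lower. Hist1h1b, a linker histone gene, was at 11.2 CPM in negative cells and 122 CPM in other cells. At equal depth, 10 negative cells (3.28%) held 10 or more histone counts, against 35.9% of other cells. Histone genes are near-identical copies, so that the level of any single one is uncertain, and 29 of the 50 listed were under the 10 CPM needed to be tested.

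Across the genes tested the shift was mostly downward. Of 6643 genes tested outside the rule, meaning at 10 CPM or more over all 4636 cells, 316 were 2-fold or more lower (4.76%) and 44 were 2-fold or more higher (0.662%) in negative cells. Most counts behind this filter came from other cells, so genes high only in negative cells could miss it. With no filter on low values, 522 were lower and 138 higher. A total of 68% were lower and 32% higher by any amount, and the median log2 ratio was -0.16, with a 10th percentile of -0.72 and a 90th of 0.30. The same direction in every band of total counts was found in 35.4% of genes for lower and in 11.8% for higher levels. The interval of the log2 ratio lay below 0 for 2975 and above 0 for 1168 of the 6643 genes, so separate intervals were common. Overlap of intervals within bands was read for listed genes and the extremes only, and its share over all genes was not counted. Among listed genes, Tyrobp and Gm42418, whose small differences are given further on, were also apart in all 5 bands. Separation in every band therefore does not by itself mark a gene out. Among the 316, 89 belong to the cell-cycle lists and 227 do not. Without the 78 negative cells lowest in Myc target and ribosome biogenesis counts, called target-low cells and described further on, 14 genes were 2-fold higher in place of 44 and 267 lower in place of 316. In every comparison without these cells the other cells were kept whole, including their own cells low in those counts. Removal from negative cells alone lowers, by construction, genes concentrated in target-low cells. That setting was chosen after the data had been seen.

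**Figure D1:**
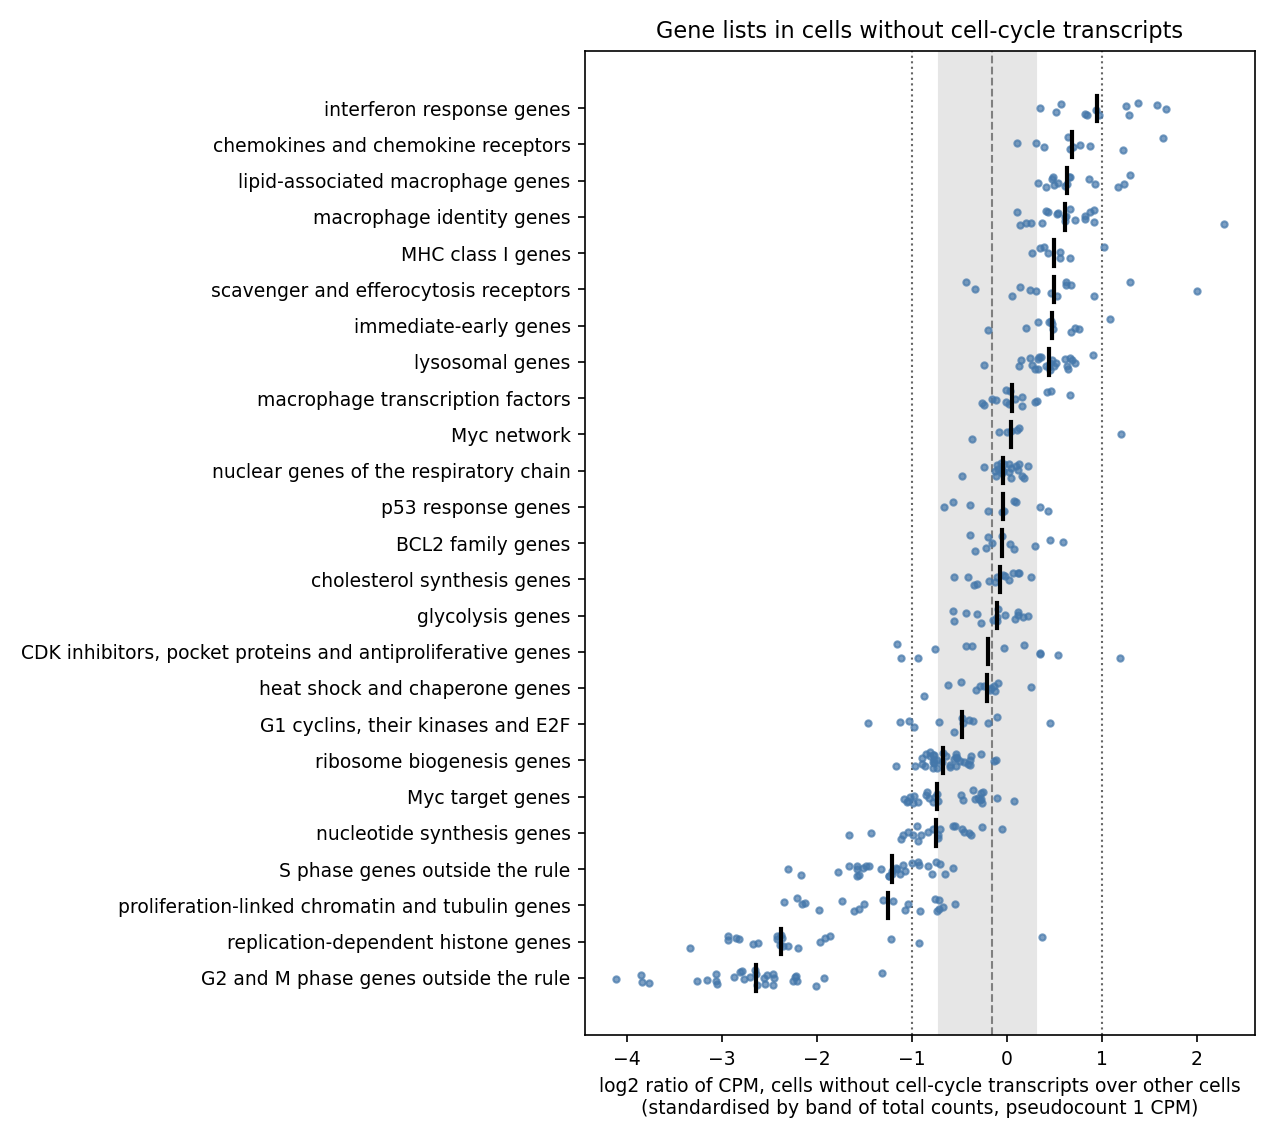
Each point is a gene of the list named on the left, placed by its log2 ratio of CPM in negative over other cells. Black bars are list medians, the grey band runs from the 10th to the 90th percentile of all 6643 genes (-0.72 to 0.30) with their median dashed, and dotted lines mark 2-fold. The G2 and M phase list has the lowest median (-2.65) and the interferon response list highest (0.95).

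Ordered by median log2 ratio, as in the plot of gene lists, the lists lay on both sides of the all-gene median. Below it lay the cell-cycle, nucleotide synthesis, Myc target, ribosome biogenesis and G1 cyclin lists. The CDK inhibitor (-0.20) and heat shock (-0.21) lists were only slightly below the all-gene median of -0.16. Close to 0 lay energy metabolism, the p53 response, the Myc network, the BCL2 family and macrophage transcription factors. Above the all-gene median lay the lists of macrophage function and of the interferon response.

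Genes that act upstream in the cycle, in G1, were lower in 12 of 13 tested members, 9 of them in every band and 3 by 2-fold or more, with a median log2 ratio of -0.48 (-0.78 to -0.29). The 1 exception was Ccnd1, which encodes cyclin D1, the growth factor-responsive cyclin of G1. It stood at 209, 208, 243, 243 and 314 CPM in negative cells over the 5 bands from shallow to deep, against 179, 181, 185, 179 and 199 CPM in other cells. Negative cells were higher in each band (log2 ratio 0.46), and the intervals overlapped in the 2 shallowest bands. Its kinase partner Cdk4 was lower, at 257 and 329 CPM, and Cdk6 was at 35.4 and 40.8 CPM. Ccnd3 was at 76.2 CPM in negative cells and 82.0 CPM in other cells, and Ccnd2 at 9.07 and 8.88 CPM, below the level needed to be tested. Of genes that act at the step into S phase, Ccne1, which encodes cyclin E1, was at 20.6 and 30.7 CPM, Ccne2 at 6.35 and 13.5 CPM, and the phosphatase gene Cdc25a at 20.6 and 34.3 CPM. Cdk2, the partner of cyclin E, was at 9.68 CPM in negative cells and 13.1 CPM in other cells. The transcription factor genes E2f1, E2f2 and E2f3 had log2 ratios of -0.48, -1.04 and -0.46, and the late repressor E2f8 one of -1.47. Skp2, which marks the inhibitor p27 for destruction, stood at 4.99 and 12.04 CPM. E2f7 was at 0.302 and 2.98 CPM, with 2 counts in negative cells, and Myb had none there and was at 0.124 CPM in other cells.

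The inhibitors of the cycle showed no common direction. Of 12 tested genes that restrain the cycle, 5 were higher and 7 lower, with a median log2 ratio of -0.20. Cdkn1a, which encodes the inhibitor p21, had 239, 280, 331, 257 and 310 CPM in negative cells by band and 275, 241, 288, 279 and 340 CPM in other cells. It was higher in 2 bands and lower in 3, at a log2 ratio of -0.03 (288 and 294 CPM overall). Cdkn1b, which encodes p27, an inhibitor of quiescent cells, was low in both, at 3.02 CPM in negative cells and 3.10 CPM in other cells. Of the INK4 inhibitors, Cdkn2c was lower at 4.99 and 12.01 CPM and Cdkn2d was at 14.97 and 20.5 CPM. Cdkn2b was at 0.454 and 0.493 CPM, and Cdkn1c had no count in negative cells. Cdkn2a, whose locus encodes p16 and p19ARF, which the counts do not part, stood at 10.1 CPM (7.85 to 12.9) in negative cells and 2.40 CPM (2.12 to 2.73) in other cells. It was higher in 4 of 5 bands but lay below the 10 CPM needed over all cells to be tested.

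Among the pocket proteins, Rb1 was at 7.26 CPM in negative cells and 9.65 CPM in other cells, and Rbl1, which encodes p107 and is itself a gene of late G1 and S phase, at 5.14 and 12.7 CPM. Rbl2, which encodes the p130 subunit of DREAM in resting cells, was at 6.50 and 6.04 CPM. The repressive partner E2f4 was lower, at 27.5 and 53.5 CPM (log2 ratio -0.93), and E2f5 was at 3.93 and 5.76 CPM. The gene with the highest log2 ratio of the 12 was Btg1, an antiproliferative gene of the BTG and TOB family that is high in resting lymphocytes. In negative cells it had 49.9, 77.7, 53.8, 71.3 and 102 CPM by band, against 29.7, 27.7, 31.5, 35.1 and 34.3 CPM in other cells, with no overlap of the intervals in any band and a log2 ratio of 1.19. Of its family, Btg2 was at 19.1 and 6.57 CPM and Tob1 at 11.5 and 6.22 CPM, both below the level tested, and Tob2 at 24.3 and 21.4 CPM.

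The remaining restraining genes lay on either side of 0. Foxo3, a transcription factor gene of quiescence and stress, was at 15.6 CPM in negative cells and 10.4 CPM in other cells, and Foxo1 at 4.69 and 5.96 CPM. Klf4 was lower at 17.99 and 31.2 CPM, whereas Klf2 was at 18.1 and 14.0 CPM. The cyclin G genes Ccng1 and Ccng2 were at 56.7 and 44.5 CPM and at 3.48 and 2.52 CPM, and Trp53inp1 was at 6.80 and 2.18 CPM. The p53 response list as a whole had a median log2 ratio of -0.04, with 4 of 10 tested members higher. Its members with the largest ratios were Aen (27.7 and 44.3 CPM), Sesn2 (16.6 and 25.2 CPM) and Mdm2, the ubiquitin ligase of p53 (24.2 and 17.7 CPM), each with negative cells first.

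Myc, the inducing factor, was slightly lower and its antagonist Mxd4 higher. Myc (chromosome 15, 61985391 to 61990374, plus strand, GRCm38) stood at 21.4, 18.5, 31.3, 24.5 and 38.9 CPM in negative cells from the shallowest to the deepest band and at 34.8, 34.1, 35.5, 37.0 and 42.7 CPM in other cells. The direction was the same in all 5 bands, but the intervals overlapped in 4 of them, and the overall log2 ratio was -0.37 (29.0 and 37.8 CPM). Counts per gene do not separate the Myc given for induction from the endogenous gene. Mxd4 (chromosome 5, 34173883 to 34187720, minus strand), which encodes a MAX partner that opposes MYC at its sites, had 67.7, 80.1, 80.3, 89.9 and 99.8 CPM in negative cells, against 42.1, 38.7, 37.3, 37.4 and 34.8 CPM in other cells. No intervals overlapped, and the log2 ratio was 1.20. It was the gene of the Myc network with the largest difference. Max was at 49.6 CPM in negative cells and 45.4 CPM in other cells, Mxi1 at 15.9 and 16.9 CPM, Mnt at 22.5 and 20.8 CPM, Mga at 17.8 and 17.8 CPM and Mlx at 22.98 and 22.2 CPM. Mxd1 (4.38 and 2.40 CPM), Mlxip (11.5 and 8.81 CPM) and Mxd3 (0.151 and 1.32 CPM, 1 count in negative cells) were not tested for their low level.

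Growth genes that MYC is known to bind were lower almost throughout. Of 26 Myc target genes 25 were lower (median log2 ratio -0.74, 4 by 2-fold or more), and their summed level was 8157 CPM in negative cells and 11044 CPM in other cells. Nolc1, a nucleolar chaperone gene, had 116, 88.8, 102, 95.8 and 125 CPM in negative cells by band and 212, 224, 198, 203 and 261 CPM in other cells, with all bands apart. Further members with large ratios were Polr1b, a subunit of RNA polymerase I (7.71 and 17.4 CPM), the nucleolar helicase gene Ddx21 (46.3 and 97.0 CPM) and Nop58, of the box C/D particles that modify ribosomal RNA (105 and 215 CPM). Ncl, which encodes nucleolin, stood at 1135 CPM in negative cells and 2044 CPM in other cells. All 35 tested ribosome biogenesis genes were lower as well (median -0.67), with Utp20 at 9.22 and 21.98 CPM and Dkc1 at 57.6 and 108 CPM. So were all 22 nucleotide synthesis genes (median -0.75), led by Tyms, the thymidylate synthase gene (20.3 and 66.5 CPM), which is also an S phase gene. The E-box CACGTG, the site MYC and MAX bind, was present within the same promoter window in 7 of 21 Myc target genes with an entry (33.3%) and 9 of 35 ribosome biogenesis genes (25.7%), against 8.09% of all genes searched. Heat shock and chaperone genes were lower in 11 of 12, none by 2-fold or more. Their median log2 ratio of -0.21 lay close to the -0.16 of all genes tested, of which 68% were lower. Among them, Hsph1 was at 14.1 and 26.7 CPM and the cytosolic chaperone gene Hsp90aa1 at 237 and 367 CPM.

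Energy metabolism differed little. The median log2 ratio of glycolysis genes was -0.11, and they summed to 8745 CPM in negative cells and 8830 CPM in other cells. Nuclear genes of the respiratory chain had a median of -0.04 (11071 and 11086 CPM), and cholesterol synthesis genes one of -0.07. Within these lists, Pfkp, a phosphofructokinase gene, was at 46.7 CPM in negative cells and 69.8 CPM in other cells, Cycs, which encodes cytochrome c, at 238 and 329 CPM, and Srebf2, the regulator of cholesterol genes, at 27.1 and 40.3 CPM. The BCL2 family, which sets the threshold for apoptosis, had a median of -0.06, with Bcl2l1 at 35.1 and 22.9 CPM and Bbc3 at 20.3 and 26.8 CPM.

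Negative cells carried more of the macrophage transcripts. All 20 macrophage identity genes were higher (median log2 ratio 0.61, 17 in every band), and the list summed to 20002 CPM in negative cells and 14259 CPM in other cells. The median was 0.30 without the 78 cells lowest in Myc target and ribosome biogenesis counts. The 3 chains of complement C1q, C1qa, C1qb and C1qc, stood at 572 and 312 CPM, 457 and 259 CPM, and 690 and 366 CPM. Mrc1, the mannose receptor gene, was at 102 CPM in negative cells and 53.5 CPM in other cells, the integrin gene Itgam at 65.3 and 36.4 CPM, and the lysozyme gene Lyz2 at 5842 and 3554 CPM. At the low end of the differences, Csf1r, the receptor for CSF1, was at 167 and 145 CPM (log2 ratio 0.20) and Cx3cr1 at 97.8 and 90.8 CPM. At 8000 counts a Csf1r count was found in 68.5% of negative cells and 65.6% of other cells. Macrophage transcription factors, by contrast, had a median of 0.06, with Maf at 125 and 93.0 CPM, Cebpb at 151 and 181 CPM, Spi1, which encodes PU.1, at 246 and 221 CPM and Irf8 at 112 and 114 CPM.

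The gene with the highest log2 ratio of the 6643 was Ms4a7 (chromosome 19, 11321039 to 11336146, minus strand), a membrane protein gene of mature macrophages. In negative cells it had 54.6, 178, 98.0, 97.5 and 53.9 CPM from the shallowest to the deepest band, against 19.8, 13.5, 18.7, 19.1 and 15.6 CPM in other cells (overall 88.7 and 17.4 CPM, log2 ratio 2.29). All bands were apart, and the level in negative cells varied by band more than that in other cells. Folr2, which encodes folate receptor beta of resident macrophages, stood at 42.6 CPM in negative cells and 10.1 CPM in other cells (1.97), and its intervals overlapped in the shallowest band. The activating IgG receptor gene Fcgr4 was at 41.7 and 9.65 CPM (2.004), with all bands apart. Ccl6, a CC chemokine gene of myeloid cells, was at 111 and 34.9 CPM (1.64), and Timp2, an inhibitor of matrix metalloproteinases, at 139 and 48.8 CPM (1.496). Further genes among the 12 highest were Ahnak2, a scaffold protein gene (32.7 and 9.71 CPM), Fxyd2, a regulator of the sodium pump (75.6 and 24.3 CPM), the selenium carrier gene Selenop (151 and 58.1 CPM) and Col18a1, a collagen chain gene (47.2 and 18.6 CPM). The other three, Slfn5, Isg15 and Oasl2, belong to the interferon response.

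**Figure D2:**
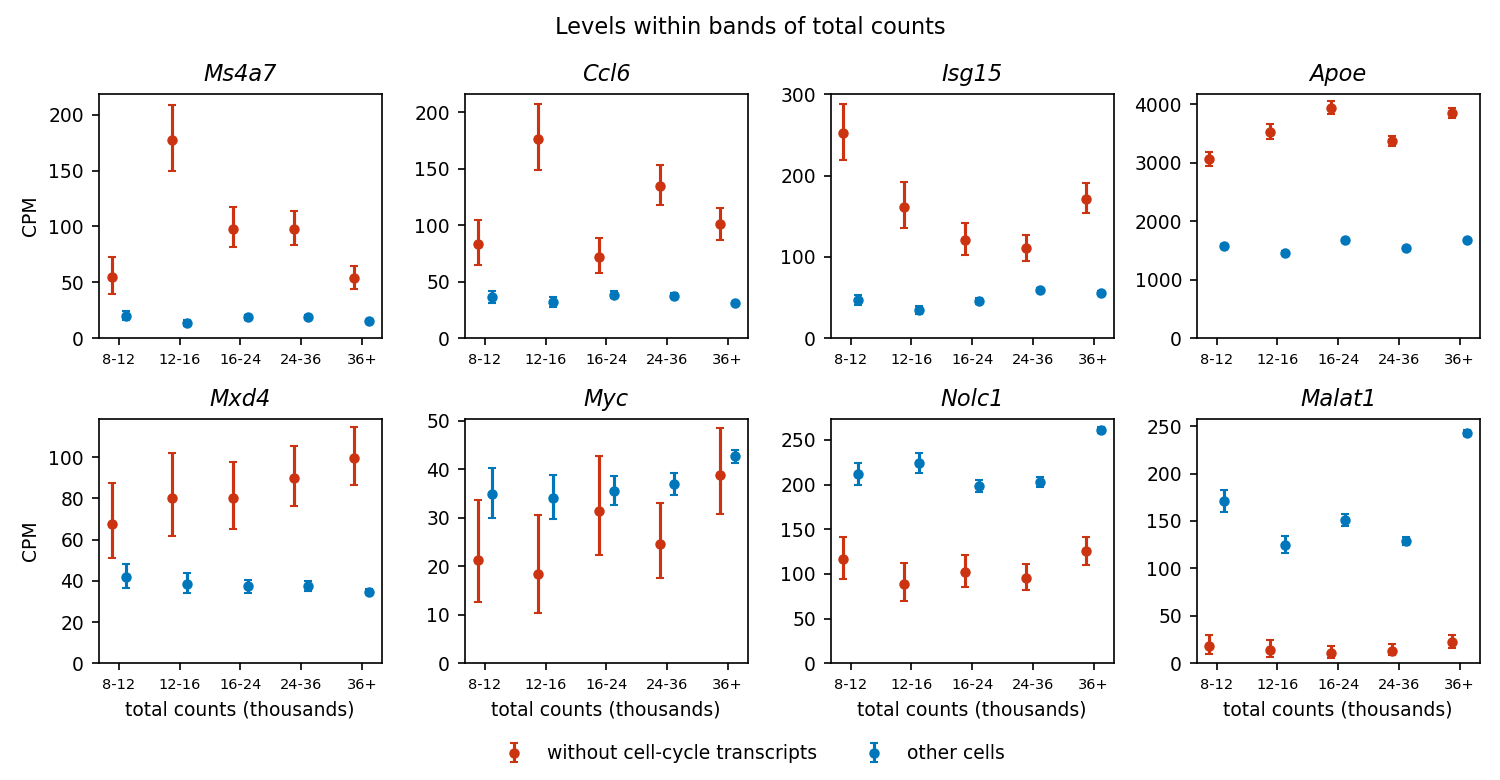
Levels in CPM (linear axes from 0) of 8 genes in negative cells (red) and other cells (blue) within each of the 5 bands of total counts. Bars are exact 95% Poisson intervals of the summed counts. Ms4a7, Ccl6, Isg15, Apoe and Mxd4 were higher and Nolc1 and Malat1 lower in negative cells in every band, while the intervals of Myc overlap in 4 bands.

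Lipid handling and uptake genes were higher together. All 15 tested lipid-associated macrophage genes were higher in every band (median log2 ratio 0.63). Apoe, which encodes the lipid carrier apolipoprotein E, had 3060, 3530, 3937, 3365 and 3848 CPM in negative cells by band and 1576, 1459, 1682, 1535 and 1671 CPM in other cells, with no overlap. Cd36, a scavenger receptor for fatty acids and oxidised lipoprotein, was at 66.2 and 26.5 CPM, the lipid chaperone gene Fabp4 at 27.7 and 11.2 CPM, and the lipid droplet gene Plin2 at 427 and 225 CPM. The secreted protein osteopontin, encoded by Spp1, had 961 CPM of its transcript in negative cells and 528 CPM in other cells. Of 24 tested lysosomal genes 23 were higher (median 0.45), such as the cathepsin genes Ctsb at 1524 and 813 CPM and Ctsd at 1141 and 722 CPM. Scavenger and efferocytosis receptors were higher in 12 of 14 (median 0.50), among them Axl, a receptor for bridging molecules on dying cells (17.1 and 10.3 CPM), and Stab1 (37.0 and 23.7 CPM). Without the 78 target-low cells these medians were smaller, at 0.33 for lipid-associated, 0.22 for lysosomal and 0.202 for scavenger and efferocytosis genes. Gas6, a bridging ligand of Axl that is in none of these lists, was at 75.9 CPM in negative cells and 32.8 CPM in other cells, and was named after its value had been seen.

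Interferon response genes had the highest median of all lists. All 12 tested were higher in every band (median log2 ratio 0.95, 5 by 2-fold or more). Isg15, a ubiquitin-like modifier induced by interferon, is shown with its promoter because the list's promoters often hold the interferon-stimulated response element. The stretch is the 250 bases before its start (chr4:156200819-156201068, minus strand, RefSeq, GRCm38.p6), 5′ to 3′ along the gene's strand, with matches in capitals, searched as a pair of GAAA with any 2 bases between them.
Isg15: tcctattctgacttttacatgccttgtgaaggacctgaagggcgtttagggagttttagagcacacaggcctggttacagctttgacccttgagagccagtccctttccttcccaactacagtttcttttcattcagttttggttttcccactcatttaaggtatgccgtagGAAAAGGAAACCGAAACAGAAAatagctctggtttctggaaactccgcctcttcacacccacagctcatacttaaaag
It holds 3 overlapping matches, of which the first begins 78 and the last 66 bases before the start. A match was found on either strand in 12 of 18 genes of the list with an entry (66.7%) and in 3.99% of all genes searched. Isg15 had 252, 162, 120.5, 110.4 and 171 CPM in negative cells from shallow to deep bands and 46.7, 34.4, 45.7, 59.4 and 55.9 CPM in other cells (log2 ratio 1.58), all bands apart. Slfn5, an interferon-inducible Schlafen gene, was at 62.7 CPM in negative cells and 19.0 CPM in other cells, the oligoadenylate synthetase-like gene Oasl2 at 27.4 and 9.91 CPM, Ifi204 at 48.8 and 19.4 CPM, and Irf7, a transcription factor of the response, at 37.6 and 15.2 CPM. Oasl2 and Ifi204 have close paralogs, so their single levels are uncertain. MHC class I genes, which interferon also raises, were higher in all 8 tested (median 0.50, and 0.31 without the 78 target-low cells), with H2-T23 at 26.9 and 12.8 CPM and B2m at 931 and 631 CPM. Of MHC class II, Cd74 was tested, at 81.5 and 51.8 CPM, while H2-Aa, H2-Ab1, H2-Eb1 and Ciita had no count in negative cells.

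Chemokine and receptor genes were higher in all 10 tested (median log2 ratio 0.68, 7 in every band, and 0.34 without the 78 target-low cells). Cxcl16, which encodes a membrane-bound chemokine and scavenger receptor, was at 30.8 CPM in negative cells and 12.6 CPM in other cells, Ccl2, a chemokine for monocytes, at 79.4 and 42.7 CPM, Pf4 at 409 and 240 CPM and Ccl9 at 642 and 404 CPM. Immediate-early genes, which signalling and handling of cells switch on within minutes, were higher in 10 of 11 (median 0.47), with Fos at 79.4 and 37.0 CPM, Atf3 at 47.5 and 27.7 CPM and Egr1 at 18.3 and 11.1 CPM. Their part in the other differences was not tested.

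Of transcripts not translated into protein, Malat1 stood apart. This long nuclear RNA (chromosome 19, 5795690 to 5802672, minus strand) had 17.8, 13.6, 10.4, 13.4 and 21.95 CPM in negative cells by band, against 171, 125, 151, 129 and 243 CPM in other cells. All bands were apart, and the log2 ratio of -3.35 was the seventh lowest outside the rule genes, among mitotic and histone genes. Neat1, the RNA of nuclear paraspeckles from a neighbouring locus, was at 3.78 and 11.9 CPM (log2 ratio -1.43). At equal depth 5 or more Malat1 counts were found in 0 of 305 negative cells, which allows a share of up to 0.984%, and in 8.47% of other cells. Any count was found in 8.52% of negative cells and 19.995% of other cells (17.7% and 35.05% at full depth). Among the remaining noncoding RNAs listed, Gm42418, which overlaps a ribosomal RNA locus, was at 62142 CPM in negative cells and 60110 CPM in other cells, and Gm26917 was at 26.2 and 41.1 CPM.

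Whether these differences stop at the rule or run through the whole population was read by grouping cells, thinned to 8000 counts, by their counts of the 8 rule genes. The other cells held 273 with 0 such counts at that depth, 499 with 1, 941 with 2 to 3, 1350 with 4 to 7 and 1268 with 8 or more. Ms4a7 was at 91.4 CPM in negative cells, and at 47.2, 28.8, 18.1, 10.4 and 9.56 CPM over these groups in turn. Mxd4 was at 80.7 CPM in negative cells and 78.8, 62.9, 46.0, 26.3 and 22.2 CPM in the others, so the group with 0 thinned counts, whose median total of 34174 counts was deeper than the 17026 of negative cells, lay close to them. Isg15 was at 165 CPM and then 96.6, 78.9 and 50.5 CPM, was lowest in the group of 4 to 7 (interval 31.6 to 38.7 CPM) and stood at 52.6 CPM in that of 8 or more. Malat1 ran the other way, at 13.5 CPM in negative cells and 11.4, 19.3, 37.9, 93.4 and 427 CPM in the others, so that its high level lay in cells rich in mitotic transcripts. Myc target genes summed to 7783 CPM in negative cells and 9428, 9602, 10715, 11562 and 11893 CPM in the others. Macrophage identity genes summed to 20059 CPM and to 17853, 16465, 14667, 13732 and 12972 CPM. Apart from Isg15 and Malat1, these levels ran in 1 direction over the 6 groups with negative cells at the end, and they are not independent of the rule.

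**Figure D3:**
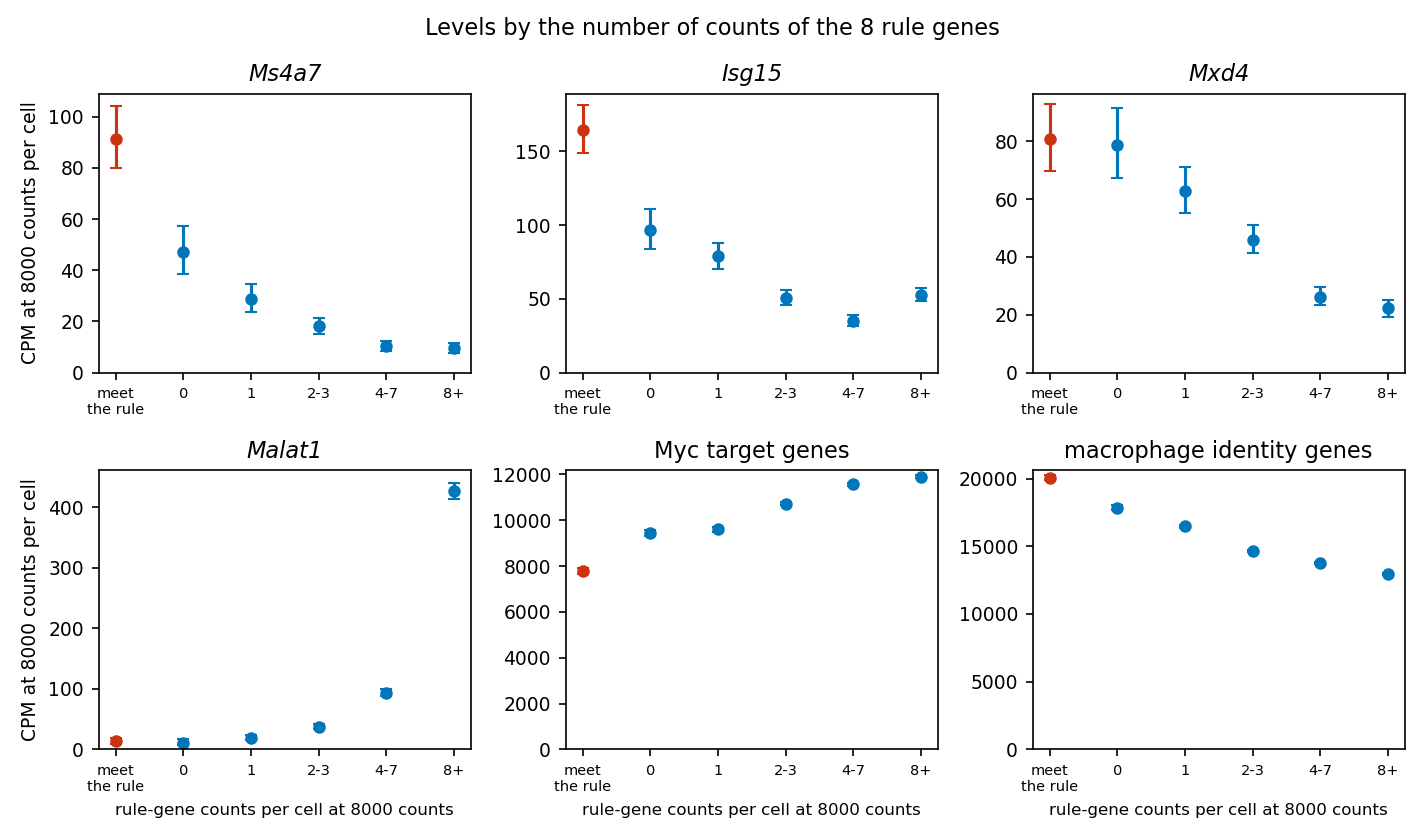
Levels in CPM of cells thinned to 8000 counts (linear axes from 0), for negative cells (red, at left) and for other cells (blue) by their number of counts of the 8 rule genes. Bars are exact 95% Poisson intervals. Ms4a7, Isg15 and macrophage identity genes are highest in negative cells (91.4, 165 and 20059 CPM), and Malat1 is highest in cells with 8 or more rule-gene counts (427 CPM).

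The negative cells were not alike among themselves. A count of Ms4a7 was present in 91 of the 305 cells, and the 30 cells with most counts held 78.9% of all its counts. For Folr2 the 30 top cells of 55 with a count held 85.8%, for Isg15 72.9% of 128 cells' counts, for Ly6c2, a monocyte marker, 91.6% and for Prtn3, a granule protease gene of myeloid progenitors, 61.4%. By comparison, Timp2 was found in 179 cells, and the top 30 held 48.9%. The higher level of Ms4a7 thus rested on a minority of negative cells. At equal depth 25.9% of negative cells (21.1 to 31.2%) held a count of Ms4a7 or Folr2, against 8.91% of other cells, and 30.2% (25.1 to 35.7%) held one of Ly6c2 or Prtn3, against 40.5% of other cells. Monocyte markers as a list did not follow the second pair, summing to 176 CPM in negative cells and 158 CPM in other cells. Granulocyte and progenitor markers, which include Prtn3, summed to 87.5 and 125 CPM. Neither pair was found in 46.9% of negative cells and 52.1% of other cells. Both pairs were found in 1.45% of other cells and in 9 negative cells (2.95%). Doublets were not removed, and their share in these 9 was not tested.

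To describe this spread, negative cells were ordered by their summed counts of 62 Myc target and ribosome biogenesis genes at 8000 counts, as a range and not as types. The 78 lowest (at most 58 counts, median 47), the target-low cells, were set beside the 80 highest (at least 95, median 110), called target-high cells, with 147 middle cells between them (median 76). The other cells had a median of 114, so target-high cells were close to the population. Median total counts were 15587, 16765 and 20901 in target-low, middle and target-high cells, which is a difference in depth that goes with the order. Of 3952 genes at 20 CPM or more over the negative cells and outside the ordering genes, 229 were 2-fold or more higher (5.79%) and 521 lower (13.2%) in target-low cells. That level was taken over all negative cells, so a gene high in target-low or target-high cells alone could pass. By any amount 37.8% were higher and 62.2% lower, at a median log2 ratio of -0.21.

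Several genes that led the comparison above were concentrated in the target-low cells, among them Ms4a7, Folr2 and Ccl6. Ms4a7 stood at 304 CPM in target-low cells (263 to 351), 7.81 CPM in target-high cells (2.54 to 18.2) and 23.8 CPM in the middle, beside 16.3 CPM in other cells. Folr2 was at 135, 9.38 and 9.35 CPM in target-low, target-high and middle cells, and Ccl6 at 299.7, 23.4 and 57.0 CPM. In the same order, the antiviral gene Rsad2 was at 107, 12.5 and 15.3 CPM, Ifit3, another interferon-induced gene, at 76.9, 9.38 and 15.3 CPM, and Slc37a2, a sugar-phosphate transporter gene of macrophages, at 67.3, 7.81 and 34.0 CPM. Next came Acp2, the lysosomal acid phosphatase gene, Pirb, an inhibitory receptor gene, Id2, an inhibitor of helix-loop-helix factors, Fcgr4, the small GTPase gene Rhoc and Cxcl16, at log2 ratios of 2.91 to 2.65. Of these genes, Folr2, Rsad2, Ifit3, Pirb and Fcgr4 lay under 20 CPM in both middle and target-high cells. They passed the filter only through target-low cells, so their direction between these cells followed from it. Ms4a7, at 7.81 and 23.8 CPM there, also owed its place largely to target-low cells. Without the target-low cells, the log2 ratio of Ms4a7 in negative over other cells was 0.25 in place of 2.29, and that of Folr2 was 0.36 in place of 1.97. Ccl6 was then at 0.53 in place of 1.64, whereas Slfn5 stayed at 1.36, Fxyd2 at 1.34, Isg15 at 1.03 and Fcgr4 at 1.07. Mxd4 and Btg1 were at 1.29 and 1.27, so these did not rest on the target-low cells.

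By list, macrophage identity genes were higher in target-low than in target-high cells in 18 of 19 (median log2 ratio 0.99) and summed to 27736 and 15494 CPM, beside 14287 CPM in other cells. Lipid-associated genes were higher in all 15 (median 1.37), with Apoe at 7093 and 2025 CPM, Cd36 at 143 and 28.1 CPM and the osteopontin gene Spp1 at 1804 and 442 CPM. Interferon response genes were higher in all 13 (1.27), chemokine genes in 8 of 10 (1.504) and MHC class I genes in all 6 (0.98). Genes such as Ifit3, Rsad2, Ccl12 and Fabp4 lay under 20 CPM in both middle and target-high cells. They passed the filter only through target-low cells, so their direction followed from it, also within these list counts. Csf1r was level, at 168 and 167 CPM, and macrophage transcription factors had a median of 0.15. Against this, monocyte markers were lower in all 4 tested (median -1.36), with Ly6c2 at 12.8 CPM in target-low and 51.6 CPM in target-high cells, and Prtn3 was at 44.9 and 167 CPM. S phase genes were lower in all 15 (median -0.73, summing to 572 and 1119 CPM), nucleotide synthesis genes in all 13 (-1.23) and heat shock genes in 8 of 9 (-0.70), with Hsp90aa1 at 94.6 and 363 CPM. G2 and M phase genes outside the rule summed to 163 CPM in target-low and 342 CPM in target-high cells, against 1470 CPM in other cells. Replication-dependent histone genes did not follow the order, summing to 330 CPM in target-low, 350 CPM in middle and 198 CPM in target-high cells. Of the 3 tested, 2 were higher in target-low than in target-high cells (median 0.83). These sums are uneven over cells, with a median of 1 count and a highest of 72 per negative cell.

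The 12 genes with the lowest log2 ratio in target-low over target-high cells were outside the ordering genes, but genes that vary together with Myc target and ribosome biogenesis genes are ordered with them, so these values are a description. Lyar, a nucleolar protein gene, stood at 9.62 CPM in target-low cells (3.53 to 20.9) and between 77.01 and 128 CPM (the interval) in target-high cells, the purine synthesis gene Atic at 4.81 and 53.1 CPM, and Idh3a, of the citric acid cycle, at 8.01 and 60.9 CPM. Cbx5, which encodes heterochromatin protein HP1 alpha, was at 4.81 and 35.9 CPM, the glutamine transporter gene Slc1a5 at 12.8 and 84.4 CPM, and the nuclear pore gene Nup210 at 4.81 and 34.4 CPM. The next 6 were Bzw2, Prps1, Wdr75, Pdcd4, Pdcd11 and Anp32a, at log2 ratios of -2.54 to -2.45. Prps1 makes the ribose phosphate for nucleotides, and Wdr75 and Pdcd11 act in the processing of ribosomal RNA. Mxd4 (64.1 and 65.6 CPM) and Btg1 (57.7 and 60.9 CPM) did not follow this order, and Myc was at 22.4 CPM in target-low and 42.2 CPM in target-high cells, with overlapping intervals and 14.5 CPM in the middle.

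Across the 305 negative cells, the ordering counts and the macrophage identity counts had a Spearman correlation of -0.55 and a Pearson correlation of -0.55 at 8000 counts per cell. The same was -0.50 and -0.52 across the 4331 other cells, so the relation was present in both. Points share 1 library and a fixed total per cell, in which more counts of one list leave fewer for another, and no p-value is given.

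**Figure D4:**
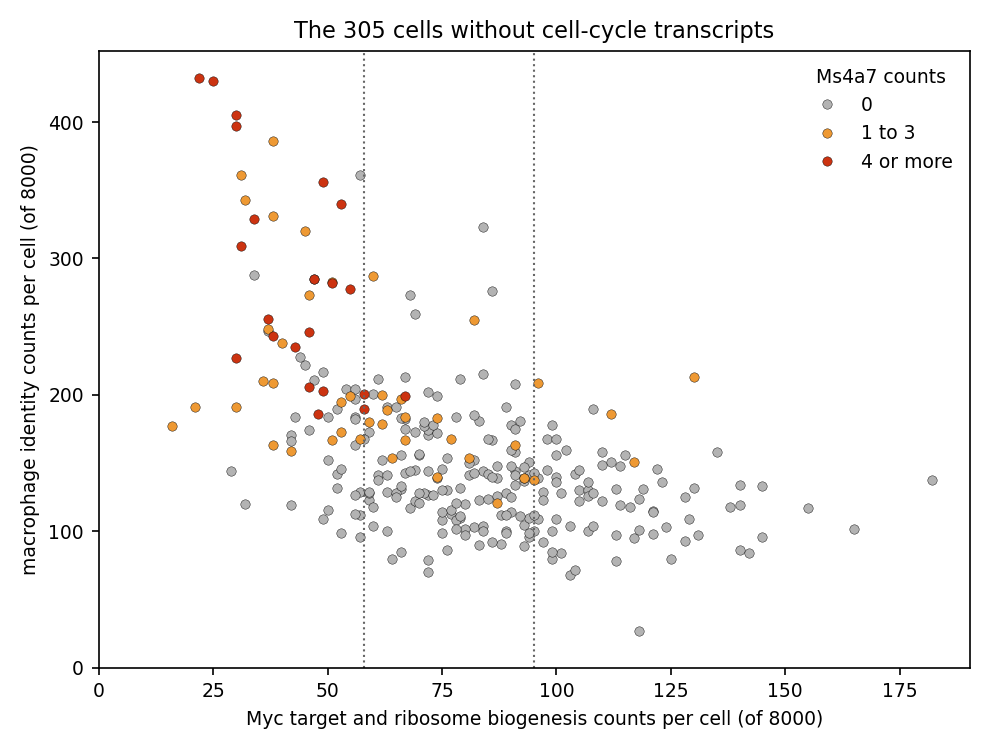
Each point is 1 of the 305 negative cells thinned to 8000 counts, by its counts of Myc target and ribosome biogenesis genes (x axis) and of macrophage identity genes (y axis), both linear from 0. Colour gives its Ms4a7 counts, and dotted lines mark the limits of target-low (58) and target-high cells (95). Of the 22 cells with 4 or more Ms4a7 counts, 21 are target-low cells.

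Cells of another type were looked for in the negative cells. All 14 macrophage markers were higher in them than in other cells, with Tyrobp, a myeloid signalling adaptor gene, at 6864 and 5750 CPM, Cd68 at 660 and 453 CPM and Adgre1, which encodes F4/80, at 52.2 and 33.8 CPM. Fibroblast markers, of which 7 of 15 had a row, summed to 1.51 CPM in negative cells (0.725 to 2.78) and 3.46 CPM in other cells, with Pdgfra, Lox and Loxl1 at 0 in negative cells. Monocyte markers summed to 176 and 158 CPM, with F13a1 at 68.0 and 36.9 CPM and Ly6c2 at 30.7 and 39.8 CPM. Granulocyte and progenitor markers summed to 87.5 and 125 CPM, nearly all of it Prtn3 (76.0 and 110 CPM). Dendritic cell markers summed to 7.11 and 9.49 CPM, B cell markers to 8.01 and 4.75 CPM, stem and progenitor markers to 7.41 and 4.54 CPM, osteoclast markers to 16.9 and 16.7 CPM, T and NK cell markers to 1.06 and 1.37 CPM and mast cell markers to 0.151 and 0.0907 CPM. The erythroid and megakaryocyte markers summed to 410.0 CPM in negative cells and 240 CPM in other cells, of which Pf4 alone gave 409 and 240 CPM, a gene that macrophages express as well.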

How the data were processed

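Single-cell RNA was measured in induced macrophages listed as 2 libraries, of which 1 joint matrix of counts was analysed. The authors deposited raw counts, whole numbers for each gene in each barcode, in a file that PISA 0.12 made, per the file headers. Per the submitters' processing notes, Cell Ranger and mm10 were used in a role not stated. For the aligner, its settings, the annotation, the calling of cells and whether counts are of unique molecular identifiers, a statement was not given in the sources used here. Counts of reads would make the intervals too narrow. The table has 20034 symbols, of which 19659 are in GENCODE M21 (GRCm38), the source of gene coordinates.

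The cells, the gene lists and the rule for named genes were chosen with earlier results of these data known. CPM values are counts summed over cells per 1000000 counts. Negative cells were divided by other cells standardised to the negative cells' counts per band (starting at 8000, 12000, 16000, 24000 and 36000), as a log2 ratio with a pseudocount of 1 CPM. A gene was called at 2-fold. Calls describe size and are no test. Intervals are at the 95% level, exact Poisson for negative cells, gamma intervals after Fay and Feuer for standardised levels and exact Clopper-Pearson for shares. A share of 0 is given the limit of 3 counts. For equal depth each cell was thinned once, with a fixed seed, to 8000 counts, and target-low and target-high cells were compared on thinned counts. Membership was decided on full counts. Doublets were not removed and no clustering was run.

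Named are the 8 rule genes, the 12 highest and 12 lowest log2 ratios, 2 to 6 members with the largest absolute ratio per list, all G1 cyclin and restraining genes with a row, the Myc network, and the 12 highest and 12 lowest genes between target-low and target-high cells. The fixed rule had 6 for the last, and the wider number, like the remaining genes given for comparison, was chosen after values were seen. Some genes that the rule names are not reported here. Promoters came from RefSeq (GRCm38.p6), without chromosome 18. Scripts ran in Python 3.11.15 with numpy 2.4.6, scipy 1.17.1, pandas 2.3.3 and matplotlib 3.10.9, and the ratio, interval and thinning steps were tested on simulated data. Alternatives changed the pseudocount, standardisation, scaling, limits of the rule, low-value filter and cells left out.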

Additional observations from a re-analysis of the deposited data

How the results depend on the processing

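The 305 negative cells became 172 when 0 counts were required of Ube2c and Birc5 too, 221 at 12000 or more counts and 304 at 5% mitochondrial counts or less. The number of genes 2-fold or more higher, 44, was 138 with no filter on low values, 20 with a pseudocount of 10 CPM and 14 without the 78 target-low cells. The 316 lower genes were 522 with no filter and 133 with a pseudocount of 10 CPM. Under the remaining alternatives both counts stayed within 1.5 times. No call reversed its direction in any of the 11 alternatives, of which 2 (without those cells, and without cells that hold a Malat1 count) were added after the data had been seen.

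Of 26 list medians, 22 kept their direction under all 11 alternatives, the exceptions being the Myc network, the respiratory chain, cholesterol synthesis and MHC class II, which was at -0.0091 in place of 0.64 with no filter. With a pseudocount of 10 CPM the S phase median was -0.94 and the interferon median 0.73. The interferon median was 1.35 with no filter and 1.23 with 0 counts of Ube2c and Birc5. Thinning gave -0.84 for ribosome biogenesis and 0.51 for macrophage identity. Without target-low cells, and with the other cells kept whole, the medians were -0.54 for Myc targets, 0.30 for macrophage identity and 0.68 for interferon response. The cause of these differences was not tested. By construction the filter and the pseudocount let in or damp low genes, and removal of target-low cells lowers genes concentrated in them. Of 349 values for 32 named genes, 348 kept their sign. No paired analysis was possible because 1 matrix without a map of barcodes to libraries holds no replicate. Depth limits which cells meet the rule, and levels of a few CPM rest on few counts.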
